A study of Mus musculus with 29 samples.

Results

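Blood neutrophils of mice at day 14 after stroke were compared with blood neutrophils at day 2 after stroke, across all genes. The cells were all those with the deposited broad annotation code Neu in the 7 stroke blood libraries: 8813 cells from 4 libraries at day 2 and 2922 cells from 3 libraries at day 14. These 11735 cells were part of 33980 cells in the stroke blood libraries, of 51709 in all 11 blood libraries, and of 94978 in the 23 libraries of young mice that were read, of 29 libraries in the series. Counts were summed over the neutrophils of each library, so that a library and not a cell was the replicate.

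Single-cell transcripts were counted by Drop-seq, which tags the RNA of each cell in a droplet with a barcoded bead. For stroke, the middle cerebral artery, a main artery of the brain, was blocked for a limited time and then reopened; controls had sham surgery. All blood donors were C57BL/6J males, labelled 8 to 10 weeks old, with no genetic change stated in the labels. The deposited age was 9, 10, 10 and 10 weeks in stroke day 2 replicates 1 to 4 and 9, 9 and 8 weeks in stroke day 14 replicates 1 to 3. In sham replicates 1 to 4 it was 9, 10, 9 and 8 weeks. The part of age in the difference between days was not tested. Each library pooled heart blood of 2 mice, with red cells lysed, Ter-119-positive cells removed, and Brilliant Blue G and the transcription inhibitor actinomycin D added during isolation. The blood groups used were stroke day 2 (4 libraries), stroke day 14 (3) and sham day 2 (4). A later comparison used brain libraries of young males, also labelled 8 to 10 weeks old: stroke day 2 (4), stroke day 14 (4) and sham day 2 (4). The sham libraries used here were all taken at day 2, so the stage of the stroke response and the time since surgery cannot be told apart in the difference between days.

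Neutrophils are short-lived phagocytes that are made in the bone marrow, circulate for hours and are among the first leukocytes to enter injured tissue. They carry antimicrobial proteins in granules that are filled in sequence during maturation, sense microbes and damage through chemoattractant, Toll-like and C-type lectin receptors, and answer interferon with a characteristic set of genes. Blood neutrophils are replaced continuously from the marrow, and bacterial products, cytokines, glucocorticoids and the time of day are all known to change which genes they express.

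Of 16623 genes in the blood tables, 4944 passed a filter on low counts and were tested. The identity of the cells was checked on 11 neutrophil markers, all of which passed the filter. Their summed level was 163190 to 332244 CPM (counts scaled to a common library size, here with TMM factors) in the day 2 libraries and 92463 to 186152 CPM in the day 14 libraries. The receptor for granulocyte colony-stimulating factor, Csf3r, was at 1646 ± 106 CPM (SD, n = 4) at day 2 and 1645 ± 282 CPM (SD, n = 3) at day 14. Of the 11 markers, 9 had a log2 fold change below 0 (median -0.92), against 2330 of all 4944 tested genes (median 0.03). Of these 9, Retnlg and Il1r2 passed the test described below, which called 3.3% of all tested genes lower. Ly6g, at 507 ± 241 and 188 ± 181 CPM, did not pass (edgeR adjusted p 0.177). Each library held 506 to 3968 neutrophils and 212122 to 2949522 neutrophil counts. Neutrophils made up 47.8% ± 25.0 of blood cells at day 2 and 18.2% ± 5.97 at day 14 (SD, n = 4 and 3), against 30.6% ± 15.2 in sham; the exact two-sided permutation test of the stroke groups gave p = 0.171, where 3 against 4 libraries cannot go below 0.0571. By the same exact permutation test, the median count per neutrophil (396 ± 53.9 at day 14, 512 ± 164 at day 2, p = 0.4) and the median mitochondrial percent (0.671 ± 0.149 and 0.936 ± 0.822, p = 0.686) did not pass a threshold of 0.05 either.

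In 2 of the libraries the deposited counts stood apart. The neutrophils of sham replicate 1 and of day 2 replicate 1 kept 0.0345% and 0.339% of their mt-Rnr2 counts, taken as a share of the same values rounded up to whole counts. The other 9 blood libraries kept 75.4% to 93.6% of them. Over all genes, 91.4% to 97.6% of the rounded-up neutrophil counts were kept. The overall count of called genes is therefore also given without these 2 libraries.

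Blood neutrophils at day 14 differed from those at day 2 in 232 genes, 4.69% of those tested, at a Benjamini-Hochberg adjusted p under 0.05 in edgeR's quasi-likelihood test. Of these, 163 genes fell (3.3%) and 69 rose (1.4%). On the TMM scale, 49 of the 163 fell by at least 4-fold and 15 of the 69 rose by at least 4-fold. Of the genes that fell, 19 had a mean above 1000 CPM at day 2. Lst1, which encodes a leukocyte membrane protein, was the 1 riser with a mean above 1000 CPM at day 14. In 155 of the 163 fallers and 68 of the 69 risers, no day 14 library overlapped with a day 2 library, against 8.66% and 8.33% of all tested genes.

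**Figure D1:**
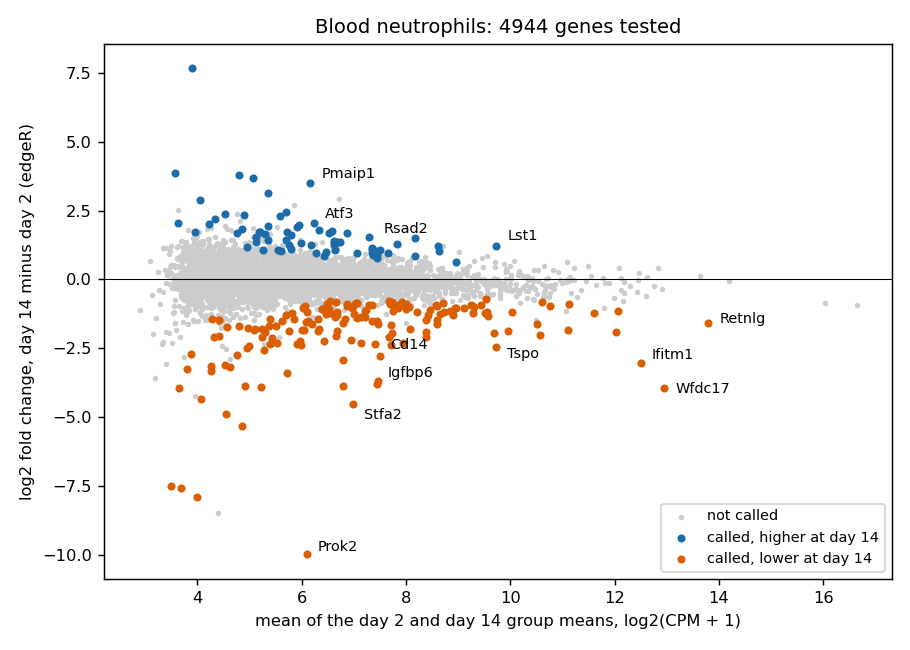
Log2 fold change between day 14 and day 2 (y axis; edgeR) against the mean level of the day 2 and day 14 groups (x axis, log2(CPM + 1)) for the 4944 genes tested in blood neutrophils. Orange points are the 163 genes called lower at day 14, blue points the 69 called higher; the abundant called genes Wfdc17, Ifitm1 and Retnlg lie far to the right and below 0.

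The balance of risers and fallers rested on the scaling: when libraries were scaled by their size only, 182 genes rose and 79 fell, and the median over all genes was a log2 fold change of 0.36, where TMM gave 0.03. CPM are levels relative to the RNA counted in each library's neutrophils, here after TMM scaling. A lower level of 1 gene and more RNA of other genes therefore cannot be told apart. The genes Wfdc17, Ifitm1, Retnlg and Ifitm2 together held 3.76% to 5.69% of neutrophil counts at day 2 and 1.14% to 1.42% at day 14. Without sham replicate 1 and day 2 replicate 1, 106 genes were called, 105 of them among the 232; leaving out day 2 replicate 1 alone gave 92 calls, and leaving out day 14 replicate 1, 2 or 3 gave 108, 123 or 67.

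Of the named genes and the called members of the gene lists, Csf1, Mtdh, Eif3a, Slfn8, Haus8, Cmpk2, Hsp90ab1, Ifitm2, Fpr1, Csf2rb, Zfp36l1, Per1, Tlr13, Trem1, Lilrb4a and Birc3 kept their direction without sham replicate 1 and day 2 replicate 1 but were not called. Fpr1, Csf2rb, Zfp36l1, Per1, Tlr13, Trem1, Lilrb4a, Birc3 and mt-Cytb kept their direction but were not called when libraries were scaled by size only. Leaving out day 2 replicate 1 alone lost the same calls as leaving out both, and those of Atf3, Slfn5, Tec, Il1r2, Ifit3b and Acod1. Whichever of the 3 day 14 libraries was left out, Cxcl2, Il1r2, Ggt1, Fpr1, Csf2rb, Tlr13, Trem1, Birc3, Slfn5, Ifit3b, Mtdh and Eif3a were not called. Without day 14 replicate 1, Acta2, Ifi204, Cmah, Casp4, Per1, Atf3, Csf1, Rsad2, Retnlg and mt-Cytb were not called either. The last 5 of these were also not called without replicate 3, nor was Tmem268, and Acta2, Cmah and Per1 were also not called without replicate 2. Tec, Slfn8, Haus8, Ifitm2, Cmpk2, Osm, Acod1, Zfp36l1, Lilrb4a and Hsp90ab1 were not called without replicate 2 and without replicate 3. Ifit3b was not called without day 2 replicate 2, 3 or 4. Csf2rb, Tlr13 and Zfp36l1 were not called without day 2 replicate 2 or 3, and Slfn5 without 2 or 4. Tec, Lilrb4a and Per1 were not called without day 2 replicate 2, and Fpr1, Mtdh, Eif3a, Slfn8 and mt-Cytb without replicate 4. With cells of at least 400 counts, Csf1, Slfn5, Ifit3b, Csf2rb, Lilrb4a, Tlr13 and mt-Cytb were not called. No direction changed in these settings.

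The largest abundant faller was Wfdc17, which encodes a small secreted protein with a WAP (whey acidic protein) domain, a fold found in protease inhibitors and antimicrobial proteins. It was at 25126, 8996, 13208 and 12288 CPM in the 4 day 2 libraries and at 1618, 754 and 532 CPM in the 3 day 14 libraries. Every day 14 library was below every day 2 library and also below every sham library. The log2 fold change was -3.94 ± 0.46 (SE, edgeR adjusted p 0.000503). Wfdc17 lies on the plus strand of chr11:83703991-83706268 (GRCm38, GENCODE M21), beside Wfdc18 and Wfdc21, 2 more genes of this domain family.

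Both neighbours fell as well. Wfdc18 was at 51.0, 23.4, 21.2 and 37.2 CPM at day 2 and at 1.80, 7.79 and 0 CPM at day 14 (log2 fold change -3.13 ± 0.58, adjusted p 0.00595). Wfdc21 was at 8084, 4168, 6122 and 8060 CPM at day 2 and at 1308, 3134 and 807 CPM at day 14 (-1.91 ± 0.45, adjusted p 0.0218). Wfdc18 and Wfdc21, like the stefin A genes below other than Stfa2, were singled out after their values were seen. In all 3 genes the lowest day 2 library was above the highest day 14 library.

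A second block of neighbouring genes that fell was the stefin A cluster on chromosome 16, whose members inhibit cysteine proteases of the cathepsin family. Stfa2 (chr16:36403992-36408457, minus strand) was at 340.3, 93.5, 246 and 286 CPM at day 2. At day 14 it had 24.9 CPM in replicate 2 and no count in replicates 1 and 3. Its log2 fold change was -4.53 ± 0.70 (adjusted p 0.00266). Of the other genes of the cluster, Stfa2l1 fell from 2211 ± 519 to 717 ± 146 CPM (SD; -1.62 ± 0.25, adjusted p 0.00241) and Stfa1 from 321 ± 108 to 97.9 ± 49.7 CPM. BC100530 fell from 207 ± 82.3 to 11.9 ± 12.5 CPM and Stfa3 from 68.5 ± 33.3 to 3.63 ± 6.29 CPM. These genes are near-identical copies, so how reads were divided among them is uncertain, and the 5 values are not 5 independent measurements.

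Prok2, prokineticin 2, a secreted chemoattractant that myeloid cells make, had no count left at day 14. It was at 180.3, 73.7, 144.4 and 141.6 CPM in the day 2 libraries, 773 counts in all, and had no count in any of the 3 day 14 libraries. With counts pooled over the libraries of each day, which gives deeper libraries more weight, and a floor of 3 counts over the day 14 group, its pooled level was at least 74.5-fold lower (adjusted p 0.00891). Sham libraries ranged widely, from 12.6 to 617.8 CPM. Rhov, a small GTPase, Snai1, a transcriptional repressor, and Cdc25b, a cell cycle phosphatase, were the other called genes with no count at day 14, and on the same floor their pooled levels were at least 17.3-fold, 14.2-fold and 13.7-fold lower.

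Among the other named fallers, Igfbp6, which binds insulin-like growth factors, was at 471, 320.05, 191 and 313 CPM at day 2 and at 36.0, 17.1 and 15.1 CPM at day 14 (log2 fold change -3.79 ± 0.36, adjusted p 6.2e-05). Ifitm1, an interferon-inducible membrane protein that hinders viral entry, was at 18084, 5608, 7413 and 10179 CPM at day 2 and at 1908, 1034 and 849 CPM at day 14 (-3.03 ± 0.41, adjusted p 0.00134). Tspo, a cholesterol-binding protein of the outer mitochondrial membrane, was at 2238, 784, 1066 and 1658 CPM at day 2 and at 378, 276 and 128 CPM at day 14 (-2.44 ± 0.41, adjusted p 0.00332). In these 3 genes day 2 replicate 1 was the highest of the stroke libraries, and no day 14 library overlapped with a day 2 library, as the rule for naming required. For Tspo the lowest day 2 library was at 784 CPM and the highest day 14 library at 378 CPM.

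Cxcl2, a chemokine that draws neutrophils through Cxcr2, was at 287, 653, 259 and 100.7 CPM at day 2 and at 43.2, 4.67 and 30.2 CPM at day 14 (log2 fold change -3.70 ± 0.83, adjusted p 0.0179). Its sham libraries spanned 37.8 to 364 CPM and so reached into the day 14 range. The last 5 of the 12 named fallers were Galnt6, an enzyme that starts O-linked glycosylation, Cd14, the co-receptor for lipopolysaccharide, Tagln2, an actin-binding protein, Cmah, which modifies sialic acid, and the membrane protein Tmem268, with log2 fold changes from -3.40 (Galnt6) to -2.33 (Tmem268).

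**Figure D2:**
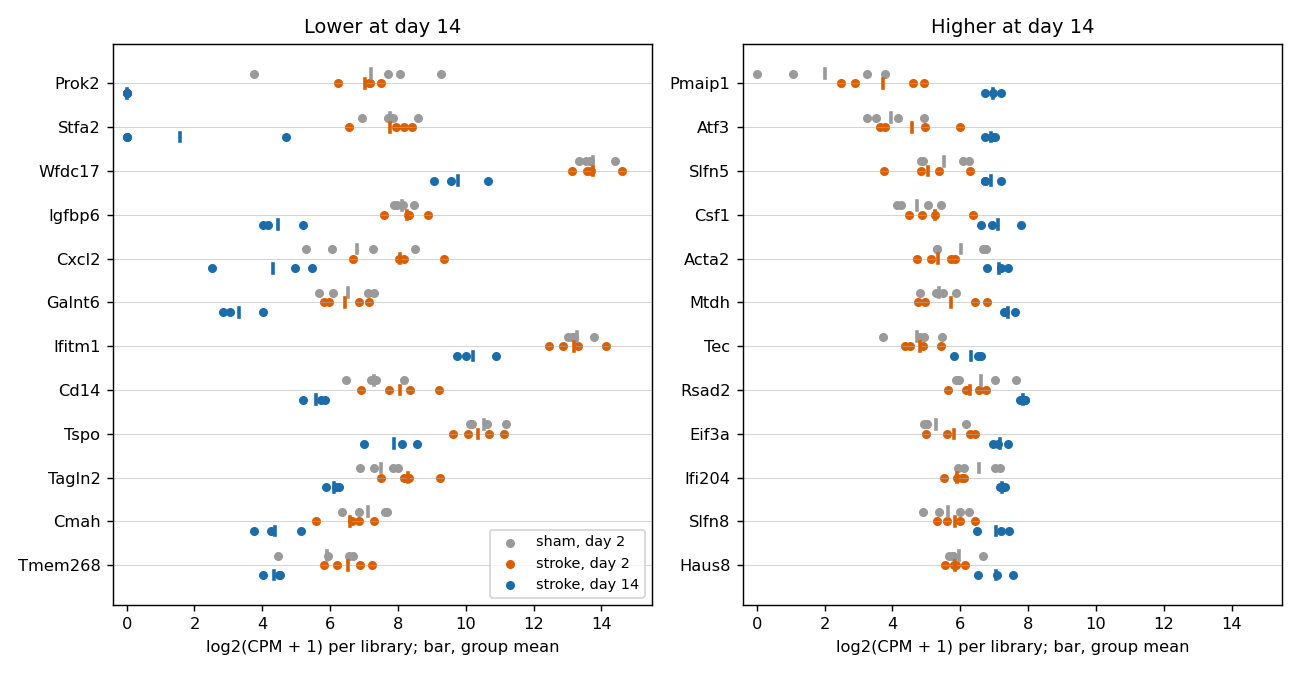
Level of the 24 named genes in blood neutrophils, as log2(CPM + 1) (x axis), with 1 point per library and a bar for the group mean: grey, 4 sham libraries at day 2; orange, 4 stroke libraries at day 2; blue, 3 stroke libraries at day 14. In each gene the blue points lie on 1 side of all orange points, as the rule for naming required, and the sham points of Prok2 and Cxcl2 spread widely.

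A list that joined genes of the tertiary (gelatinase) granules with other products of mature neutrophils changed in part. Of its 12 tested members, 4 fell and none rose, against 3.3% and 1.4% of all tested genes. The median log2 fold change was -0.68, against 0.03 for all tested genes. The 4 were Retnlg, Il1r2, Ggt1 and Prok2, which do not stand for granule genes as a whole. Not called were Mmp9, Mmp25, Padi4, Pglyrp1, Cfp, Adam8, Slpi and Mgam. Retnlg, a resistin-like secreted protein, was at 18936, 16008, 19198 and 31437 CPM at day 2 and at 5856, 9429 and 5953 CPM at day 14 (-1.60 ± 0.33, adjusted p 0.0126). Il1r2, the decoy receptor for interleukin 1, was at 1765, 1798, 433 and 1247 CPM at day 2 and at 306, 315 and 419 CPM at day 14 (-1.94 ± 0.42, adjusted p 0.0148). The highest day 14 library of Il1r2 was close to the lowest at day 2, which was replicate 3. Its sham libraries spanned 328 to 843 CPM and so reached into the day 14 range.

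Ggt1, which splits glutathione outside the cell, had 244 counts over the day 2 libraries and 2 over the day 14 libraries, a ratio of pooled levels of 35.3 with a 95% counting interval of 9.66 to 293 (edgeR adjusted p 0.0157). Its call was lost without day 14 replicate 1, 2 or 3. Prok2 was the other faller of this list. The matrix protease Mmp9, the main enzyme of these granules, was at 1280 ± 337 CPM at day 2 and 1334 ± 45.3 CPM at day 14 (log2 fold change 0.06 ± 0.22, adjusted p 0.948).

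Over all 4944 tested genes, 880 were at an unadjusted p under 0.05 in edgeR, and DESeq2 called 284. Of 12 genes of the secondary (specific) granules, edgeR called 0 (median 0.01). Of these 12, 4 were at an unadjusted p under 0.05, and 1 was called by DESeq2. Some of these genes mark young neutrophils and differed more within groups than between them: the antimicrobial precursor Camp was at 54.3, 653, 0 and 6094 CPM at day 2 and at 315, 7298 and 317 CPM at day 14. The high libraries were day 2 replicate 4 and day 14 replicate 2, and the same 2 were highest in Ngp and Ltf. Of 9 primary granule genes only 2 passed the filter. The alarmins S100a8 and S100a9, the most abundant neutrophil transcripts, were at 133546 ± 41615 and 86670 ± 34641 CPM at day 2 and at 70815 ± 25545 and 47426 ± 18568 CPM at day 14, and their groups overlapped (adjusted p 0.129 and 0.189).

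Some receptors that sense microbes and damage fell. Of 19 tested pattern recognition and Fc receptor genes, 5 fell and none rose (median -0.40), against 3.3% and 1.4% of all tested genes. Cd14 was at 592, 324, 119 and 212 CPM at day 2 and at 52.2, 35.8 and 56.6 CPM at day 14 (log2 fold change -2.77 ± 0.50, adjusted p 0.00537). Clec4e, the lectin Mincle, which senses mycobacterial lipid and dead cells, fell from 673 ± 243 to 280 ± 26.1 CPM (SD; -1.28 ± 0.25, adjusted p 0.00891). Trem1, which amplifies inflammatory signals, the inhibitory receptor Lilrb4a and Tlr13, a sensor of bacterial ribosomal RNA, fell by 1.05, 0.80 and 0.77 on the log2 scale.

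Called chemotaxis genes went in both directions, though most of the list leaned lower. Of 14 tested, 3 fell and 1 rose (median -0.51), against 3.3% and 1.4% of all tested genes. The log2 fold change was below 0 in 12 of the 14, and in 2330 of all 4944 tested genes. Fpr1, the receptor for bacterial formyl peptides, was at 737, 444, 510 and 932 CPM at day 2 and at 292, 416 and 264 CPM at day 14 (log2 fold change -1.02 ± 0.27, edgeR adjusted p 0.0447). With the replicate number as a block in the fit, Fpr1 was not called. Ptafr, the receptor for platelet-activating factor, was at 151, 124, 123 and 141 CPM at day 2 and at 277, 231 and 283 CPM at day 14 (0.94 ± 0.18, adjusted p 0.00823). With the cells of the annotated subtype Neu3 left out, Ptafr was at 0.32 and not called (adjusted p 0.648). Within subtype Neu3 its log2 fold change was 1.16 ± 0.30 (adjusted p 0.0294), and within Neu2 it was lower at day 14, at 66.1 CPM against 146 CPM, and not called (adjusted p 0.496). The chemokine receptor Cxcr2, at 5042 ± 491 and 3839 ± 338 CPM, did not pass the test (adjusted p 0.303), and Csf2rb, the shared receptor chain for GM-CSF and interleukin 3, fell from 541 ± 95.4 to 299 ± 29.5 CPM (-0.86 ± 0.23, adjusted p 0.0471). Of 10 tested adhesion genes edgeR called 0. Of them 3 were at an unadjusted p under 0.05 and 1 was called by DESeq2, against 880 and 284 of all 4944 tested genes.

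Inflammatory mediators fell in single genes only. Of 20 tested genes of this list, 3 fell and none rose, against 3.3% and 1.4% of all tested genes. The list's median was -0.31 against 0.03 for all tested genes, and 0.01 against 0.36 when libraries were scaled by size only. The 3 were Acod1, the enzyme that makes itaconate (101 ± 62.2 to 21.5 ± 12.9 CPM, log2 fold change -2.23 ± 0.50, adjusted p 0.0181), the cytokine Osm (163 ± 79.8 to 36.3 ± 18.4 CPM, -2.05 ± 0.46, adjusted p 0.0176) and Casp4, the inflammatory caspase that binds lipopolysaccharide (192 ± 57.6 to 73.5 ± 11.2 CPM, -1.41 ± 0.28, adjusted p 0.0104). The cytokine Il1b was at 5985, 6735, 6215 and 3699 CPM at day 2 and at 6964, 4292 and 5515 CPM at day 14, groups that overlapped throughout (adjusted p 0.989).

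Of 10 tested glucocorticoid-induced genes, 2 fell, Il1r2 and the clock gene Per1, and none rose, against 3.3% and 1.4% of all tested genes. The log2 fold change was below 0 in 6 of the 10 and above 0 in 4. Per1 was at 39.4, 64.7, 21.2 and 27.5 CPM at day 2 and at 1.80, 1.56 and 15.1 CPM at day 14 (log2 fold change -3.11 ± 0.80, adjusted p 0.0365), and its sham range was 0 to 12.6 CPM, so that the day 2 stroke libraries were above both other groups. The hour of blood collection was not given in the labels and was not tested. Fkbp5, another gene induced by glucocorticoids, was at 104 ± 58.8 CPM at day 2 and 33.2 ± 14.5 CPM at day 14 (edgeR adjusted p 0.064). Zbtb16 of the same list went the other way, from 18.7 ± 11.2 to 39.2 ± 8.55 CPM (edgeR adjusted p 0.133). Neither was called. Of 14 clock genes only 2 passed the filter.

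Among metabolic genes, Hif1a, which encodes the oxygen-regulated factor that keeps neutrophils on glycolysis, was at 223, 153, 149 and 132 CPM at day 2 and at 62.98, 56.1 and 45.3 CPM at day 14 (log2 fold change -1.57 ± 0.26, adjusted p 0.00332). It was the 1 called gene of 19 tested in the glycolysis and hypoxia list (median -0.40), a count near the 4.69% share of all tested genes. The lactate dehydrogenase Ldha (444 ± 85.1 and 251 ± 52.0 CPM, adjusted p 0.064) and Gapdh (811 ± 122 and 437 ± 215 CPM, adjusted p 0.0964) did not pass the test. Of 8 tested transcripts of the mitochondrial genome 2 fell, where 3.3% of all tested genes fell. Of these, mt-Co1 fell from 534 ± 76.9 to 136 ± 59.5 CPM (-1.92 ± 0.26, edgeR adjusted p 0.00134). The other, mt-Cytb, fell from 154 ± 29.8 to 77.7 ± 16.7 CPM (-0.95 ± 0.23, edgeR adjusted p 0.0244). With counts rounded up mt-Cytb was at -0.35 and not called. The deposited values of mt-Co1 kept 77.7% to 86.5% of the rounded-up counts in day 2 libraries and 39.3% to 72.1% in day 14 libraries. Among 67 tested genes of the nuclear-encoded respiratory chain edgeR called 0 (median 0.03). Of them 7 were at an unadjusted p under 0.05 and 0 were called by DESeq2, against 880 and 284 of all 4944 tested genes.

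**Figure D3:**
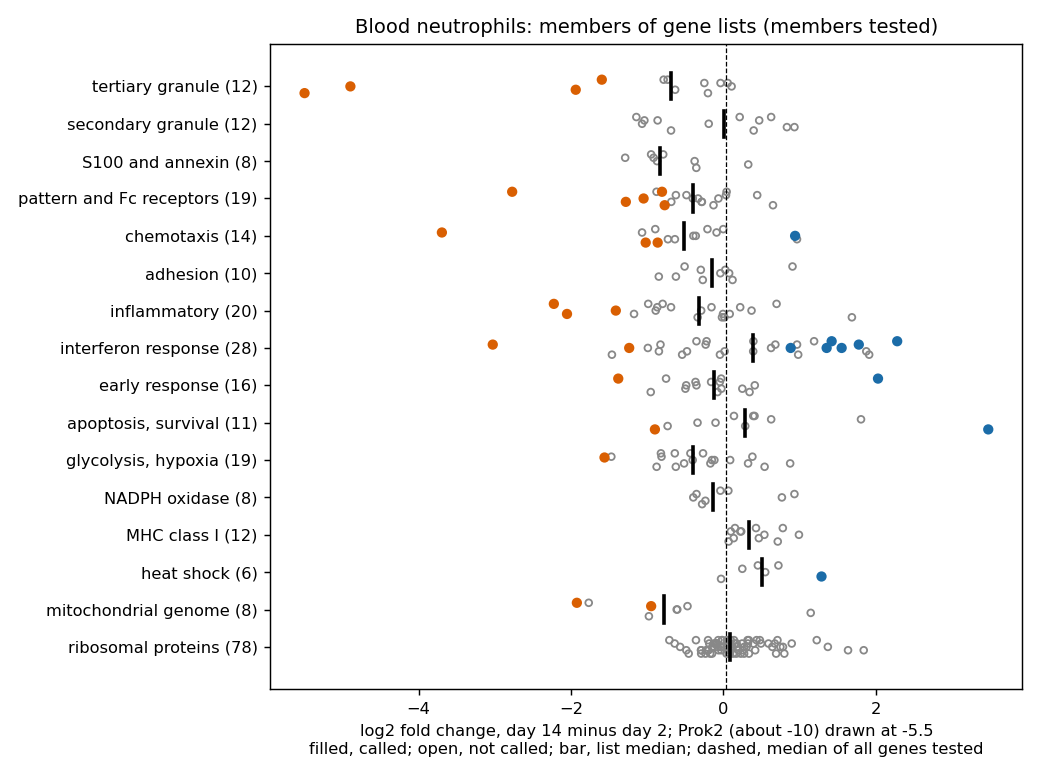
Log2 fold change between day 14 and day 2 (x axis; edgeR) of the tested members of 16 gene lists (rows; number of tested members in brackets) in blood neutrophils. Filled orange points are members called lower at day 14, filled blue points members called higher, open points members not called; the bar is the list median and the dashed line the median of all tested genes, and Prok2 is drawn at the left edge.

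The genes that rose included part of the interferon response. Of 28 tested members of that list, 6 rose and 2 fell, against 1.4% and 3.3% of all tested genes. The list's median was 0.39, against 0.03 for all tested genes. Rsad2, the antiviral enzyme viperin, was at 93.7, 48.5, 106 and 71.1 CPM at day 2 and at 241, 215 and 238 CPM at day 14 (log2 fold change 1.55 ± 0.35, adjusted p 0.0181). Ifit3b, a member of the family that binds viral RNA, was at 20.7, 8.99, 17.0 and 14.5 CPM at day 2 and at 84.6, 62.3 and 90.5 CPM at day 14 (2.28 ± 0.59, edgeR adjusted p 0.0357). Its call was lost whichever of the 7 stroke libraries was left out, and with cells of at least 400 counts. Every day 14 library was above every day 2 library in Rsad2 and Ifit3b. Sham libraries reached 197 CPM for Rsad2 and 54.9 CPM for Ifit3b.

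Slfn5, of the Schlafen family, was at 40.2, 12.6, 76.5 and 27.5 CPM at day 2 and at 148, 106 and 106 CPM at day 14 (log2 fold change 1.78 ± 0.43, adjusted p 0.0254). Ifi204, of a family of DNA sensors, rose by 1.36 ± 0.28 and Cmpk2, a mitochondrial nucleotide kinase beside Rsad2 on chromosome 12, by 1.42 ± 0.31. The reverse was seen in Ifitm1 and in Ifitm2, which fell from 4397 ± 1314 to 1867 ± 699 CPM (-1.24 ± 0.28, adjusted p 0.0194). These 2 lie next to each other on chromosome 7 with Ifitm3 and Ifitm6, whose log2 fold changes of -0.85 ± 0.32 and -1.46 ± 0.59 were not called. The list thus held its 2 most abundant called members among the fallers and its rarer called members among the risers.

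Promoter sequences were examined for the interferon-stimulated response motif, a site bound by transcription factors of the interferon response, because members of this list were called in both directions. The search was for GAAA, any 2 bases and GAAA again, on either strand, in the 250 bases before the RefSeq start (GRCm38.p6 table). The 3 sequences below are the promoters of risers of the interferon list that hold it, read 5′ to 3′ along the gene, with matches in capitals (a match on the opposite strand reads TTTC, any 2 bases, TTTC).
Rsad2 (chr12:26456453-26456702, minus strand): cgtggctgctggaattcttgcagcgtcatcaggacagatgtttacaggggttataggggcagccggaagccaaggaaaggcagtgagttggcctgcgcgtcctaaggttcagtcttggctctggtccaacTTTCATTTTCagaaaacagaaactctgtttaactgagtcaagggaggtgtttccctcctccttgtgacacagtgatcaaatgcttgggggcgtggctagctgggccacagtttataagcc
Ifit3b (chr19:34607707-34607956, plus strand): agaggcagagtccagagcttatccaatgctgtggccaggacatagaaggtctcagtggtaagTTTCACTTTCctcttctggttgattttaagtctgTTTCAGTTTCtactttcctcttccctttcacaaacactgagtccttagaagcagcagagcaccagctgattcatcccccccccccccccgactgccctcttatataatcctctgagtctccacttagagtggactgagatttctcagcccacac
Slfn5 (chr11:82951852-82952101, plus strand): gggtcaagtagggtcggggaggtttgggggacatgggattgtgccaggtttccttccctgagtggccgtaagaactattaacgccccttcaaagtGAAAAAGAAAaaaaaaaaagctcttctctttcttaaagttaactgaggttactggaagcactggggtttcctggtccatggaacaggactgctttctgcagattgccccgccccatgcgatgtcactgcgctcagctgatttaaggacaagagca

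The motif began 120 bases before the start in Rsad2, 188 and 154 bases before it in Ifit3b and 155 bases before it in Slfn5. It was found in 3 of the 4 interferon-list risers that had an entry in the table, in 7 of 53 matched risers (13.2%) and in 6 of 126 matched fallers (4.76%), among them Ifitm2. Of all tested genes with an entry, 157 of 3829 (4.10%) held it, and 936 of all 27025 symbols that the table lists (3.46%). The E-box CACGTG, a site bound by clock and hypoxia factors, was present in 7 of the 53 risers (13.2%) and 13 of the 126 fallers (10.3%), against 421 of the 3829 tested genes. The fallers with it included Hif1a, Per1, Il1r2 and Prok2, whose promoter is shown for its single match.
Prok2 (chr6:99726393-99726642, minus strand): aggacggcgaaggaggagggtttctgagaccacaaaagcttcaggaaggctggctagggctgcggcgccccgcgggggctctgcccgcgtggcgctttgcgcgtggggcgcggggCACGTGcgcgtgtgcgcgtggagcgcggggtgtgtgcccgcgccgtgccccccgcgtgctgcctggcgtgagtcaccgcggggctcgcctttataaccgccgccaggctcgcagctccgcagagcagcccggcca

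Another motif, TTCNNNGAA, was found in 7.55% of risers and 10.3% of fallers, against 6.76% of tested genes. A match is a string of letters in this window and shows no binding.

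The riser with the largest change among the named genes was Pmaip1, which encodes Noxa, a BH3-only protein that promotes apoptosis. It was at 4.56, 23.4, 29.7 and 6.46 CPM at day 2 and at 124, 106 and 147 CPM at day 14 (log2 fold change 3.48 ± 0.59, adjusted p 0.00374). All 3 day 14 libraries were above 100 CPM and all 8 libraries of day 2, sham included, below 30 CPM. The deposited values kept 66.7% of its rounded-up counts at day 2 and 95.6% at day 14. Among other named risers they kept 61.4% and 83.5% for Mtdh, 65.7% and 84.4% for Eif3a and 71.8% and 87.6% for Tec. Among fallers they kept 90.7% and 69.0% for Tagln2, 93.3% and 68.3% for Galnt6 and 86.3% and 61.6% for Cmah. With counts rounded up these genes were still called. Of the other 10 tested genes of apoptosis and survival, Birc3, an inhibitor of cell death, fell from 114 ± 10.1 to 62.3 ± 11.9 CPM (-0.90 ± 0.22, edgeR adjusted p 0.0244). Its sham libraries, at 68.9 ± 10.7 CPM, overlapped with those of day 14. Mcl1, which keeps neutrophils alive, was at 1743 ± 497 and 1050 ± 133 CPM (edgeR adjusted p 0.264).

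Atf3, a transcription factor of the stress response, was at 29.8, 62.9, 12.7 and 11.3 CPM at day 2 and at 122, 106 and 128 CPM at day 14 (log2 fold change 2.03 ± 0.45, adjusted p 0.016). Of 16 tested early response genes it was the only riser, and Zfp36l1, which promotes decay of cytokine RNA, the only faller. Over all tested genes 1.4% rose and 3.3% fell. Csf1, the growth factor of macrophages, was at 36.9, 82.7, 21.2 and 28.5 CPM at day 2 and at 122, 96.6 and 223 CPM at day 14 (1.75 ± 0.40, adjusted p 0.0194). Both genes were above their sham range in every day 14 library.

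The remaining named risers were the actin gene Acta2, Mtdh, the kinase gene Tec, the translation initiation factor subunit Eif3a, Slfn8, a neighbour of Slfn5 on chromosome 11, and Haus8, a subunit of the augmin complex of the spindle. Their log2 fold changes ran from 1.26 (Haus8) to 1.68 (Acta2). Outside the named genes, and chosen after its values were seen, Lst1 was at 549, 435, 506 and 543 CPM at day 2 and at 1247, 1229 and 1094 CPM at day 14 (1.23 ± 0.25, adjusted p 0.0105). The DNA sensor Aim2, chosen in the same way, was at 13.7, 25.2, 12.7 and 12.4 CPM at day 2 and at 110, 60.7 and 86.8 CPM at day 14 (2.46 ± 0.37, adjusted p 0.00241).

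Of the 69 risers, 15 (21.7%) were held by another blood cell type at over 10 times the neutrophil level, and of the 163 fallers 4 (2.45%). Over all 4944 genes tested the share was 5.85%, and it was 8.15% of those with a log2 fold change above 0 and 3.26% of those below 0. Examples are Rnase6, Itgb7 and Bri3bp, highest in dendritic cells, and Hsp90ab1, highest in T cells, which was at 104, 113, 178 and 138 CPM at day 2 and at 155, 361 and 449 CPM at day 14 and whose groups overlapped. The summed level of 10 B cell markers was 143 to 262 CPM at day 14 and up to 79.3 CPM at day 2 (422 to 793 and 129 to 617 with counts rounded up), and 5 of them, Cd79a and Pax5 included, had no whole count in any day 14 library. Of these markers only Ighm passed the filter (178 ± 71.8 and 29.6 ± 22.7 CPM, adjusted p 0.122). Summed monocyte markers were at 360 to 752 CPM at day 14 and 443 to 756 CPM at day 2, T cell markers at 17.8 to 30.0 CPM at day 14 and up to 45.0 CPM at day 2, and NK cell markers at up to 21.99 and 14.4 CPM. With counts rounded up, the NK cell marker sums were 48.4 to 65.4 CPM at day 14 and 17.1 to 23.7 CPM at day 2 and did not overlap. Dendritic cell marker sums were 0.371 to 4.35 CPM at day 14 and up to 4.20 CPM at day 2. The part of this RNA in the risers was not tested.

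Other lists held few or no calls. Among the 12 tested MHC class I genes all 12 log2 fold changes were above 0 (median 0.33) and edgeR called 0. Of these 12, 3 were at an unadjusted p under 0.05 and 1 was called by DESeq2. Of all 4944 tested genes, 2614 had a log2 fold change above 0 (median 0.03). Over these 4944, 880 were at an unadjusted p under 0.05 in edgeR and DESeq2 called 284. H2-K1 was at 346 ± 61.7 and 681 ± 239 CPM (adjusted p 0.053). Of 6 tested heat shock genes Hsp90ab1 was the 1 riser, where 1.4% of all tested genes rose. No gene was called by edgeR among 8 tested S100 and annexin genes, 8 NADPH oxidase genes, 13 iron and antioxidant genes, 3 proliferation genes and 78 ribosomal protein genes, where 5, 1, 2, 0 and 8 were at an unadjusted p under 0.05, and calls by DESeq2 numbered 2, 0, 0, 0 and 1.

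The deposited annotation divides the neutrophils into 6 subtypes, Neu1 to Neu6, and their shares differed between the days. Neu3 made up 2.17%, 8.92%, 2.48% and 9.60% of neutrophils in the day 2 libraries and 75.6%, 63.9% and 82.0% in the day 14 libraries. In sham it made up 3.20%, 0.967%, 4% and 32.2%, so that sham replicate 4 stood between the groups. Neu1 made up 34.0% to 55.4% at day 2 and 1.30% to 4.95% at day 14. The subtypes were cut from the same genes, so the shares are given as a description, without a test. With the Neu3 cells left out, 98 genes were called, 74 of them among the 232. Of the named genes and called list members, Pmaip1, Atf3, Csf1, Mtdh, Tec, Eif3a, Haus8 and Ptafr among the risers and Tmem268, Retnlg, Ggt1, Fpr1, Csf2rb, Osm, Acod1, Zfp36l1, Per1, Tlr13, Trem1, Lilrb4a and mt-Cytb among the fallers kept their direction but were not called. Leaving them out did not even out the makeup of the libraries: Neu5 then made up 33.7% to 52.0% of the remaining neutrophils at day 14 and 3.77% to 8.48% at day 2, and its part in those calls was not tested.

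In another setting every library was given the same makeup of subtypes (58.2% Neu1, 28.5% Neu3 and 13.3% Neu5). It averaged the log CPM of these subtypes with fixed weights and tested them with limma instead of edgeR. Neu2, Neu4 and Neu6 were left out, since not every library held 10 of their cells. The log2 fold changes then had a median of -0.58 over all genes, and 7 genes were called higher and 305 lower. Few cells carry some of these values. The Neu1 weight rests on 17, 55 and 22 cells at day 14, against 254 to 2200 at day 2. The Neu3 weight rests on 14 to 285 cells in the day 2 libraries. In that setting Rsad2 was at -0.70, Ifi204 at -0.61, Pmaip1 at -0.43, Slfn5 at -0.42, Mtdh at -0.27 and Ifit3b at -0.0075, none of them called. The fallers Prok2, Stfa2, Cd14, Il1r2, Ggt1, Fpr1, Csf2rb, Casp4, Acod1, Zfp36l1, Tlr13, Clec4e, Trem1 and Lilrb4a and the risers Atf3, Csf1, Acta2, Tec, Eif3a, Slfn8, Haus8, Ptafr, Cmpk2 and Hsp90ab1 kept their direction but were not called. Relative to that median, Pmaip1, Slfn5, Mtdh and Ifit3b were higher and Rsad2 and Ifi204 lower. The genes Wfdc17, Igfbp6, Galnt6, Ifitm1, Tspo and Tagln2 were lower and called in this and the other 22 alternatives tried for the comparison over all neutrophils.

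**Figure D4:**
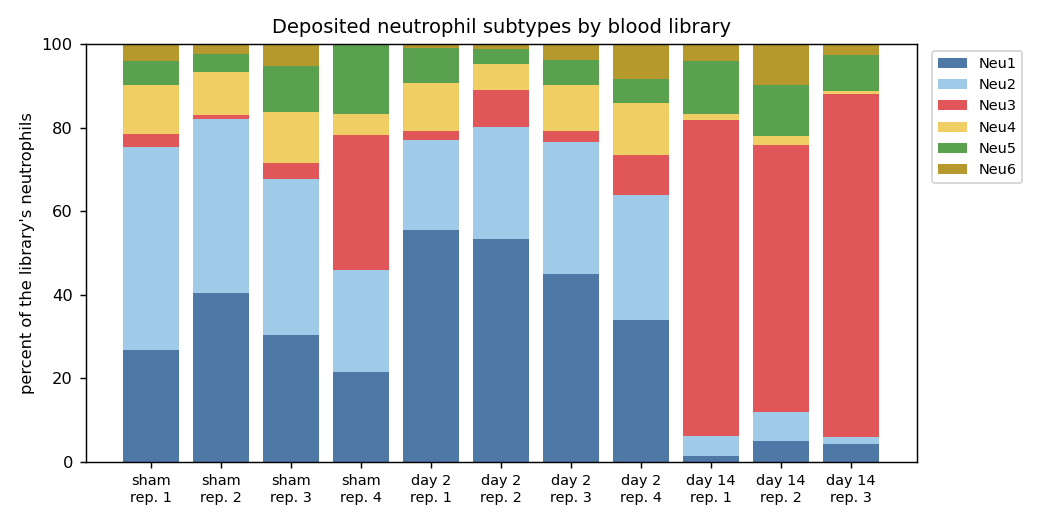
Share of the 6 deposited neutrophil subtypes (y axis, percent of the library's neutrophils) in each of the 11 blood libraries (x axis). Neu3, in red, takes 63.9% to 82.0% of the 3 day 14 libraries and 2.17% to 9.60% of the 4 day 2 libraries.

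The same comparison was fitted within each subtype, over libraries with at least 20 of its cells. The named genes were chosen from sums that include these cells, so their calls within a subtype are not independent of that choice. In Neu3, 63 of 1930 genes were called (3.26%), 9 higher and 54 lower; with libraries scaled by size only, 12 were higher and 16 lower. Wfdc17 fell there from 9111 to 1000 CPM (log2 fold change -3.18 ± 0.50, adjusted p 0.000495), Tspo by 2.16 ± 0.33 and Ifitm1 by 2.15 ± 0.38 on the log2 scale. Pmaip1 rose from 68.4 to 199 CPM (1.87 ± 0.42, adjusted p 0.0143) and Mtdh from 63.9 to 226 CPM (2.00 ± 0.39). These were the 5 called of 15 named genes tested in Neu3. Among those not called were Tagln2 (-0.59 ± 0.51, edgeR adjusted p 0.633), Csf1 (0.36 ± 0.39, adjusted p 0.715) and Igfbp6 (-1.81 ± 0.56, adjusted p 0.0767). The count was 23 without day 2 replicate 1, day 2 replicate 4 or day 14 replicate 3, 34 without day 14 replicate 2, and 109 and 100 without sham replicate 4 and day 2 replicate 2.

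In Neu5, 72 of 1253 genes were called (5.75%), 28 higher and 44 lower (69 and 32 with libraries scaled by size only), among them 11 of the 14 named genes tested. In Neu5 Rsad2, of the interferon list, was at 834 CPM at day 2 and 1934 CPM at day 14 (log2 fold change 1.18 ± 0.24, edgeR adjusted p 0.00172). Over all neutrophils Rsad2 was at 79.9 and 231 CPM. Ifitm1 of the same list was not more abundant in Neu5, at 10112 CPM at day 2 against 10321 CPM over all neutrophils. Within Neu5 Ifit3b rose by 1.73 ± 0.38 and Ifi204 by 1.59 ± 0.30. Neu5 made up 3.43% to 8.29% of neutrophils at day 2 and 8.70% to 12.7% at day 14. Without day 14 replicate 2 the count of called genes in Neu5 was 33, and without day 2 replicate 1 it was 40.

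The other subtypes gave fewer calls: 13 of 1098 in Neu4 (1.18%), 5 of 2967 in Neu2 (0.169%), 1 of 3373 in Neu1 (0.0296%) and 0 of 892 in Neu6 (0%). An unadjusted p under 0.05 in edgeR was found for 145 genes in Neu4, 306 in Neu2, 377 in Neu1 and 11 in Neu6. Only 2 day 14 libraries had enough cells of these 4 subtypes. The 1 gene called in Neu1 was Wfdc17 (-3.07 ± 0.45, adjusted p 0.0015), which was called in Neu2, Neu3, Neu4 and Neu5 too.

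Whether the change was of another size in other blood cells was tested with an interaction in the same libraries. In monocytes alone, 36 of 6706 genes were called between day 14 and day 2 (0.537%), 6 higher and 30 lower, and in B cells 1 of 8762 (0.0114%). The difference between neutrophils and monocytes passed in 120 of 7403 genes (1.62%), 61 of them among the 232, and that between neutrophils and B cells in 147 of 9415 (1.56%), 78 of them among the 232. Without day 2 replicate 1 these counts were 56 and 68, and without day 14 replicate 3 they were 60 and 81. The count against monocytes was 79 and 68 without day 14 replicates 1 and 2. The 232 genes and the named genes were chosen on the same neutrophil counts, so their overlap with the interaction calls is not independent of that choice.

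Among the named genes, 9 differed from monocytes. Wfdc17 was at 1934 ± 559 CPM in monocytes at day 2 and at 1001 ± 204 CPM at day 14, and its change was 3.15 ± 0.37 lower in neutrophils on the log2 scale. Pmaip1 was at 89.6 ± 47.3 and 80.6 ± 8.07 CPM in monocytes, and its change was 3.51 ± 0.58 higher in neutrophils (adjusted p 0.00153). Tagln2 was at 241 ± 70.8 and 350 ± 27.4 CPM in monocytes and differed by -2.92 ± 0.36. By contrast, for Rsad2 and Cd14 the difference to monocytes was -0.82 ± 0.46 and -0.89 ± 0.44 and did not pass (adjusted p 0.487 and 0.393).

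The calls in neutrophils and in monocytes shared 10 genes, among them Cd14, Cd300lf, Clec4e, Ctsl, Fbxl5, Id2, Lrg1, Nfil3 and Wfdc21, which fell in both. In monocytes Cd14 fell by 1.85 and Clec4e by 1.57 on the log2 scale.

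**Figure D5:**
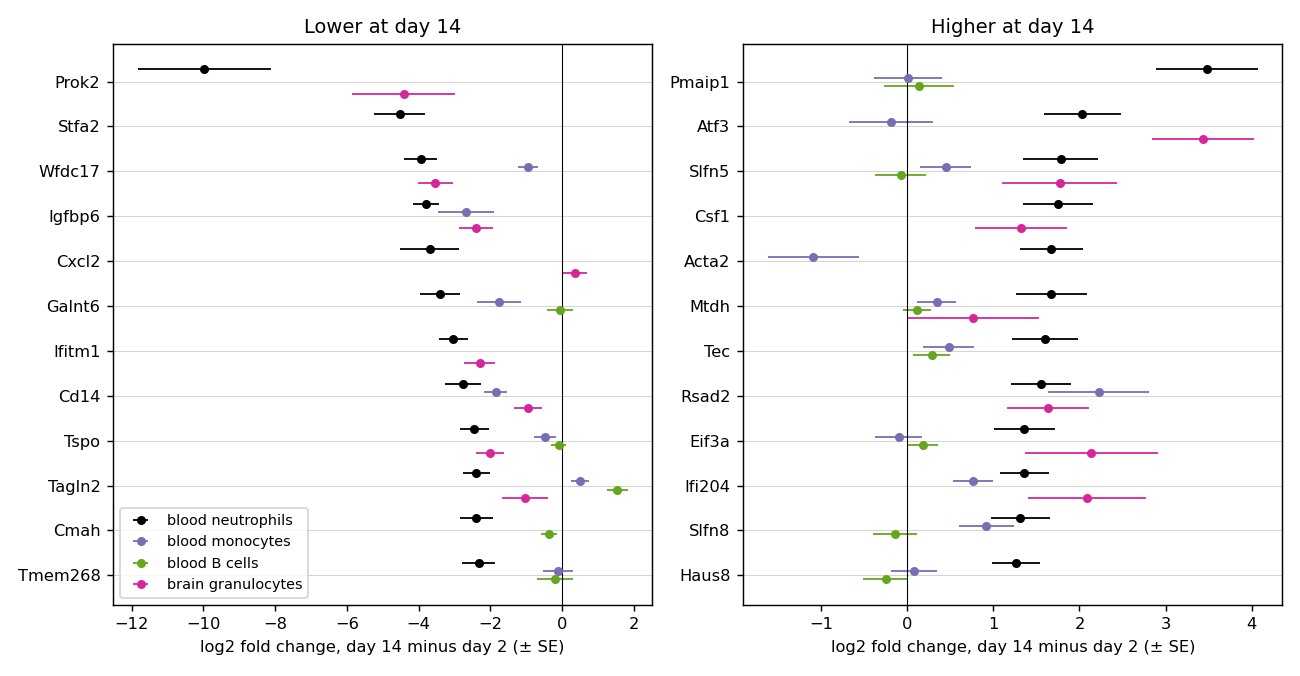
Log2 fold change between day 14 and day 2 with its standard error (x axis) of the 24 named genes in blood neutrophils (black), blood monocytes (purple), blood B cells (green) and brain granulocytes (pink); a gene without a point in a cell type was not tested there. Neutrophils and brain granulocytes lie on the same side of 0 in Wfdc17, Igfbp6, Ifitm1, Tspo and Atf3, and Cxcl2 does not fall in brain.

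Granulocytes from the brain of young male mice were measured in other libraries, 4 at stroke day 2 and 4 at stroke day 14, with 350 and 363 cells. The brain fit also held 4 sham libraries of day 2. At 9675 to 117428 counts per library these sums were shallow, and 42 of 994 genes were called (4.23%), 18 higher and 24 lower. Of the 232 genes called in blood, 106 were tested in brain granulocytes, and 15 of them were called there, 14 in the same direction. The sign was the same in 85 of the 106 (80.2%), and in 62.8% of all 972 genes tested in both. Without brain day 2 replicate 4, 15 genes were called in brain.

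Wfdc17 was at 8839 ± 5311 CPM in brain granulocytes at day 2 and at 711 ± 406 CPM at day 14 (log2 fold change -3.53 ± 0.49, adjusted p 0.000388). Retnlg fell there by 3.48 ± 0.47, Igfbp6 by 2.40 ± 0.48, Ifitm1 by 2.29 ± 0.43 and Tspo by 2.00 ± 0.39 on the log2 scale. Atf3 rose from 103 ± 53.2 to 1083 ± 373 CPM (3.43 ± 0.59, adjusted p 0.00206). The exception was Osm, which fell in blood and in brain rose from 321 ± 47.1 to 888 ± 258 CPM (1.44 ± 0.39, adjusted p 0.038). Cxcl2, which fell in blood, was at 16877 ± 2980 CPM at day 2 and 21649 ± 7092 CPM at day 14 in brain granulocytes (adjusted p 0.631). Whether the changes differ between blood and brain was not tested.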

How the data were processed

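The deposited tables hold estimated counts per gene and cell, per the file headers one column per cell; the values are fractional, and the step that made them so is not given in the sources used here. The deposited cell table gives each cell's library and annotation. The submitters' processing notes name mm10 and Seurat without a role. The authors deposited a mitochondrial percent per cell, of which the median over neutrophils was used.

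Estimated counts were summed over the neutrophils of each library and rounded to whole numbers. Genes were filtered with edgeR's filterByExpr and scaled with TMM, and the quasi-likelihood test of edgeR 4.0.16 (R 4.3.3) was fitted over the sham, day 2 and day 14 libraries, which share 1 estimate of spread. CPM are on the TMM scale. P-values were adjusted by Benjamini-Hochberg over all tested genes, and an adjusted p under 0.05 was called. The labels name separate libraries of pooled mice, so p-values measure the spread between such pools. Single library measures were compared by exact two-sided permutation tests (scipy 1.17.1). DESeq2 1.42.0 and the other alternatives are given in the closing section.

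To choose the named genes, the calls were limited to those averaging 50 CPM or more over the 7 stroke libraries whose day 14 and day 2 libraries did not overlap, and 12 were taken from either end of the ranking by log2 fold change. This skipped predicted genes, genes of the mitochondrial genome, T cell receptor, immunoglobulin, haemoglobin and ribosomal protein genes, and any gene whose CPM in another blood cell type (500 cells or more) exceeded 10 times that in neutrophils. Members of the gene lists are named within their list. The members and lists were chosen with earlier results of these data known. Scrublet (scanpy 1.11.5) marked 6 of 51709 blood cells, so doublet calling did not work and no cell was removed. No more than 7 cell barcodes were shared by any 2 blood libraries. Aged brain libraries were not analysed here. Values of some single genes are not reported here.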

Additional observations from a re-analysis of the deposited data

Results flagged for a closer look

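In neutrophils 2 risers had a sham library far from the other 3: Eif3a was at 71.2 CPM in sham replicate 2 and Haus8 at 100.8 CPM in sham replicate 4. Chance gives such a gap in about 1 in 20 groups, and 54 groups were looked at.

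The day 14 against day 2 difference was tested between neutrophils and monocytes in the same libraries (edgeR, adjusted p under 0.05). On the log2 scale, the change in neutrophils was higher than in monocytes by 3.51 for Pmaip1, 2.64 for Acta2, 1.988 for Atf3, 1.41 for Eif3a and 1.34 for Mtdh. For the fallers Wfdc17, Tagln2 and Tspo the difference was -3.15, -2.92 and -2.13. For Ifitm1 it was -7.61, a fitted value that depends on the prior count since the gene was too rare in monocytes to be tested there alone.

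Against B cells the change was higher by 3.16 for Pmaip1, 1.56 for Mtdh and 1.12 for Eif3a. The difference was -3.74 for Tagln2, -3.39 for Galnt6, -2.51 for Tspo and -2.26 for Cmah. The value for Wfdc17, -8.27, is again a fitted value that depends on the prior count.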

How the results depend on the processing

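The 232 calls became 284 with DESeq2, 261 with library size alone, 235 with RLE scaling and 303 with the stroke libraries alone. They became 234 with counts rounded up, 194 with cells of at least 400 counts and 312 with fixed subtype weights, the last by limma. Without a filter on low counts 408 were called. Leaving out 1 library gave 67 to 260. Chosen after seeing the data, leaving out sham replicate 1 and day 2 replicate 1 together gave 106, and leaving out Neu3 gave 98. Library size alone gave 207 calls for the difference to monocytes and 325 for that to B cells, and counts rounded up, also chosen after seeing the data, gave 195 and 287; leaving out 1 library gave 56 to 159 and 68 to 172. In brain granulocytes DESeq2 called 59 and library size alone 62, with 15 to 55 when 1 library was left out. Library size alone gave 3 calls in Neu1, 3 in Neu2 and 28 in Neu3, and leaving out 1 library gave 0 to 11, 0 to 12, 23 to 109, 1 to 17 and 33 to 89 in Neu1 to Neu5. Under fixed subtype weights, where all genes had a median of -0.58, Pmaip1 (-0.43), Slfn5 (-0.42), Mtdh (-0.27), Rsad2 (-0.70), Ifi204 (-0.61) and Ifit3b (-0.0075) changed sign. The difference in median mitochondrial percent, -0.265, ranged from -0.556 to 0.103 with 1 library left out, the last without day 2 replicate 3. The cause of these changes was not tested. Of the 12 named fallers 6 were called under all 23 alternatives, and of the 12 named risers 0.

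Replicate numbers did not pair the libraries throughout: the deviations of 10 same-numbered pairs correlated at -0.16 to 0.352, 4 of them over 0.1. All 3 pairs of replicates numbered 1 were among these, at 0.127, 0.185 and 0.352, and 8 of 20 comparisons were best with their own number. With the replicate number as a block, 302 genes were called in blood neutrophils and 43 in brain granulocytes; among the named genes and called list members Fpr1 alone was not called with the block (adjusted p 0.103). The planned batch alternative was not run, since the cell table used here names no technical batch. Genes of a few counts per library, such as most markers of other cell types, were below what this depth can test.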
